A study of Mus musculus with 15 samples.

Results

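Glycolysis and hypoxia-responsive genes are described here in macrophages that were saturated with silica nanoparticles (SNPs). The set holds 36 named genes, chosen by function: glucose transporters, the enzymes of glycolysis with their isozymes, the lactate and pyruvate branch, the oxygen-sensing HIF system and its best known targets. All 36 were found among the 57186 genes listed, and all 36 were among the 19839 genes that had at least 10 counts summed over the libraries and were tested. RNA was sequenced from RAW 264.7 cells, a virus-transformed mouse macrophage line that grows in culture, after 6 h, with 3 libraries in each of 5 groups. The SNP100-treated group received nonporous particles of 100 nm at 50 µg/mL, and the SNP50-treated group nonporous particles of 50 nm at 25 µg/mL. The MSNP-treated group received mesoporous particles of 100 nm at 200 µg/mL, the HMSNP-treated group hollow mesoporous particles of 100 nm at the same 200 µg/mL, and the Control group no particles. All groups were the same line in the same medium, and no label names a low-oxygen treatment. MSNP and HMSNP therefore share dose and nominal size, whereas SNP100, SNP50 and MSNP differ in dose as well as in the property compared. The shared dose is by mass. The paper describes HMSNPs as less dense and different in surface, and proposes that this could slow their uptake. Density, surface and uptake cannot be told apart in the comparison of MSNP and HMSNP.

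Glycolysis splits glucose into pyruvate in the cytosol. Glucose enters through transporters, hexokinases trap it by phosphorylation, phosphofructokinase commits it, and the lower steps recover ATP before lactate leaves through monocarboxylate transporters. Macrophages raise this pathway when they are activated. Many of its genes are also targets of HIF, a transcription factor whose alpha subunit is marked for destruction by oxygen-dependent prolyl hydroxylases, so that HIF activity is set mostly at the protein level. The same targets include genes of mitophagy, blood vessel growth and collagen hydroxylation that lie outside glycolysis.

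Total counts lay between 29369934 and 42617812 per library. The 36 members took 2.14% to 2.53% of them. The 12 macrophage markers were at 1 CPM or above in every group, with a summed level of 15300 to 21600 CPM (counts per 1000000, scaled by TMM), and the lymphocyte, fibroblast, epithelial and erythroid markers were at or near 0. Endothelial markers summed to 2.63 to 5.75 CPM in the other groups and to 8.36 to 10.3 CPM in the MSNP-treated group, nearly all of it Vwf. Their part in the results was not tested. Nothing in the labels says whether the 3 libraries of a group came from separate cultures, so the p-values measure the spread between these libraries, which may be technical. The library names of each group begin with a number of their own, which the labels do not explain, and anything that it stands for cannot be told apart from treatment. In bulk RNA, fewer cells expressing a gene and less RNA of it per cell cannot be told apart either.

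Control replicate 3 stood apart. Its counts deviated with transcript length, by 0.66 (log2) at a length of 521 bases and by -0.46 at 6101.6 bases, whereas Control replicates 1 and 2 stayed between -0.17 and 0.11 and the treated libraries between -0.22 and 0.32. Among the members, long transcripts such as Hif1a, Hk2, Pfkp and Pfkfb3 were low in this library, and short ones such as Aldoa, Gapdh, Tpi1 and Ldha were high. Results that rest on it are given with and without it.

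The regulatory sequence before 4 of the genes is shown because they cover the responses described below: Hk3, Ndrg1 and Eno2 rose about 4- to 5-fold in the MSNP-treated group, and Slc2a1 changed in opposite directions in the MSNP- and HMSNP-treated groups. Each sequence ends at the base before the outermost annotated start of its gene (GENCODE vM39, GRCm39) and is written 5′ to 3′ on the strand of the gene. Capitals mark the core of the hypoxia response element, ACGTG or GCGTG, on either strand, where it reads CACGT or CACGC on the opposite one.
Hk3: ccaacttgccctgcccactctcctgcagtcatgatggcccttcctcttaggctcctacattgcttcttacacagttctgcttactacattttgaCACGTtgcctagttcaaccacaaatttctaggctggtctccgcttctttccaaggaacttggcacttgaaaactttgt
Ndrg1: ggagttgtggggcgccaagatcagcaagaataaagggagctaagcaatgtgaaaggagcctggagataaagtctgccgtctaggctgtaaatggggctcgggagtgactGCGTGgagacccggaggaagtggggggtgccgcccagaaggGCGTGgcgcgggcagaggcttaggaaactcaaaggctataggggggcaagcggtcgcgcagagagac
Eno2: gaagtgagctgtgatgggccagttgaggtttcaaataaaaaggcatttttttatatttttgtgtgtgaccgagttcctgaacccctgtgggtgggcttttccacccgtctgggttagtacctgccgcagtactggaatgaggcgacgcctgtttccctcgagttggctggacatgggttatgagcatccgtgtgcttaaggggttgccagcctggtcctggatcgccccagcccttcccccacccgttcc
Slc2a1: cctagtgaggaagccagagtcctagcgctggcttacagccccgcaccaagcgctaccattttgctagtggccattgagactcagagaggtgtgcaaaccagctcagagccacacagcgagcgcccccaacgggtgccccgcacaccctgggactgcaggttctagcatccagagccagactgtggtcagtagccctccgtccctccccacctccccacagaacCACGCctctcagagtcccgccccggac
Hk3 (ENSMUSG00000025877) lies on chromosome 13 at 55153798-55169276 on the minus strand, and the sequence covers chr13:55169277-55169448. Ndrg1 (ENSMUSG00000005125) lies on chromosome 15 at 66801166-66841835 on the minus strand, with the sequence from chr15:66841836-66842052. Eno2 (ENSMUSG00000004267) lies on chromosome 6 at 124736247-124746636 on the minus strand, with the sequence from chr6:124746637-124746886. Slc2a1 (ENSMUSG00000028645) lies on chromosome 4 at 118965908-118996365 on the plus strand, with the sequence from chr4:118965658-118965907.

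The core occurred in the 250 bases before the canonical start of 25 of the 36 members (69.4%), against 8997 of 21770 protein-coding promoters (41.3%) and 51.5% of those of the protein-coding genes tested. The window of Ldha held 6 copies and that of Bnip3 5, whereas those of Eno2, Pfkfb3, Slc2a3 and Vegfa held 0. Of the 13 members called higher in the MSNP-treated group, 10 had the core (76.9%), as did 13 of the 20 that were not called (65%). The palindrome CACGTG contains an overlapping core on each strand and so counts as 2 of these copies. Ldha had 2 palindromes and Bnip3 had 1. The palindrome was in 6 members (16.7%), in 6.26% of all promoters and in 7.67% of those of the protein-coding genes tested. Of the 13 members called higher with MSNPs, 2 had it (15.4%), as did 4 of the 20 not called (20%). A match is a description of the letters in the window, and no match says only that they are not in this window.

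In the Control group the lower steps of glycolysis were the most abundant. Per kilobase of the canonical transcript, Pkm, which makes pyruvate, had a level of 2840 ± 228 CPM per kb (SD, n = 3). Gapdh followed at 1750 ± 247, Aldoa at 1730 ± 298, Ldha at 1380 ± 220 and Eno1 at 1120 ± 50.7 CPM per kb, and the ranges of Gapdh and Aldoa did not separate beyond their SD. The enzymes of the first steps were far lower, with Hk1 at 86.1 ± 15.4, Pfkl at 73.1 ± 5.27 and the main glucose transporter Slc2a1 at 67.7 ± 2.5 CPM per kb. Among the regulators, Hif1a was at 24.6 ± 8.33 and Egln1, the main HIF prolyl hydroxylase, at 11.9 ± 1.08 CPM per kb. Eno2 at 3.73 ± 1.09, P4ha2 at 0.287 ± 0.0299 and Stc1 at 0.0488 ± 0.0129 CPM per kb were rare transcripts. Egln3 had at most 3 counts in any library, so no fold change is given for it.

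**Figure D1:**
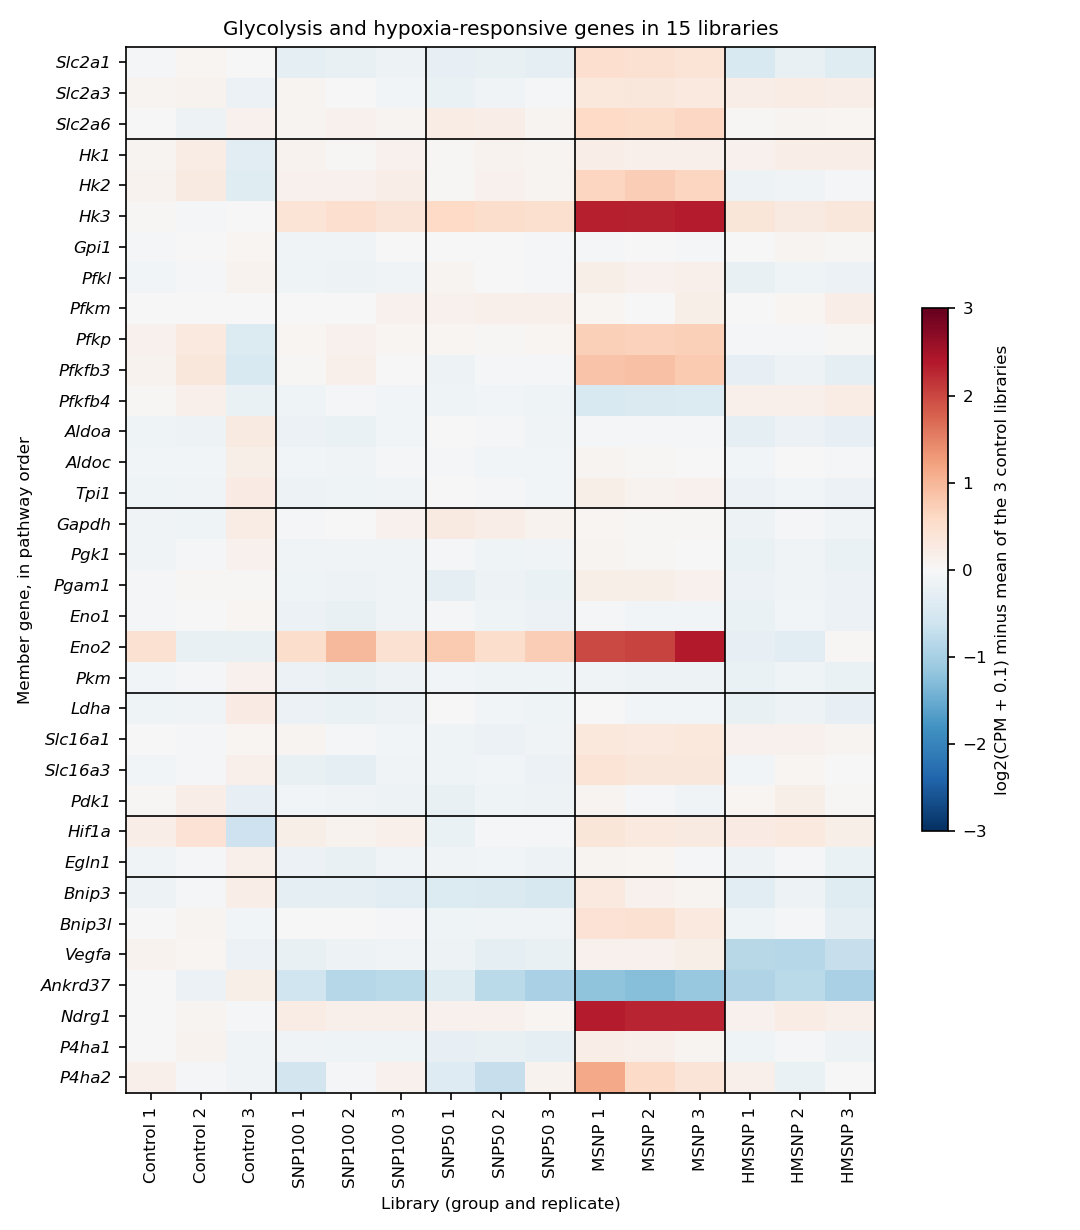
Level of 34 members (rows, in pathway order, lines between roles) in the 15 libraries (columns), as log2(CPM + 0.1) minus the mean of the 3 Control libraries, with red for higher and blue for lower. Hk3, Eno2 and Ndrg1 are deep red in the 3 MSNP libraries, Vegfa is blue in the 3 HMSNP libraries, and Control replicate 3 differs from the other controls in Hif1a. Stc1 and Egln3, with at most 10 counts in any library, are left out.

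The first comparison asked how mesoporous particles changed these genes. Against the Control group, 13 members were called higher and 3 lower in the MSNP-treated group, together 16 of 36 (44.4%), where 22.8% of all genes tested were called, 11.8% higher and 11% lower. Among genes with a mean of at least 10 CPM, 13 of 32 members (40.6%) and 33.3% of all genes were called, a smaller gap than over all levels. The median log2 fold change was 0.15 over the members and -0.05 over all genes. Without Control replicate 3, 18 members were called higher and 3 lower, and 29.5% of all genes were called. Of the increases, 3 were glucose transporters, 4 were in upper glycolysis, 1 was in lower glycolysis, 2 were lactate transporters and 3 were hypoxia-responsive targets, and the abundant enzymes between them showed fold changes close to 1.

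All 3 glucose transporters rose. Slc2a1, the basal glucose transporter GLUT1, was at 289, 311 and 303 CPM in the Control libraries and at 427, 411 and 403 CPM in the MSNP libraries. The groups did not overlap, with a log2 fold change of 0.46 (SE 0.0677, adjusted p = 0.000116). Slc2a6, a lysosomal hexose carrier of activated macrophages, rose from 72.9, 65.5 and 79.2 CPM to 109, 106 and 111 CPM (log2 fold change 0.58, adjusted p = 1.72e-05). Slc2a3, a high-affinity transporter, had a smaller value (0.31, adjusted p = 0.00821), and its call was lost when the fit held no more than the 6 libraries compared (adjusted p = 0.119). Together the transporters went from 115 ± 1.89 to 160 ± 2.88 CPM per kb (SD, n = 3).

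Hexokinases changed mainly through Hk3, the isozyme that is typical of myeloid cells. Hk3 was at 64.7, 60.9 and 63.6 CPM in the Control libraries and at 316, 313 and 322 CPM in the MSNP libraries. All MSNP libraries stood far above all others, with a log2 fold change of 2.33 (SE 0.062, adjusted p = 2.63e-12), a 5.03-fold increase. Hk2, the inducible isozyme and a HIF target, was at 115, 129 and 84 CPM in the Control group and at 169, 181 and 168 CPM in the MSNP-treated group. Its log2 fold change of 0.66 (adjusted p = 0.000414) became 0.51 without Control replicate 3, where its level was lowest, and was still called. Hk1, the ubiquitous isozyme, was not called (0.15, adjusted p = 0.288). The hexokinase sum was 120 ± 18.1 CPM per kb in the Control group and 216 ± 1.18 CPM per kb in the MSNP-treated group. Hk1 made up 71.7% ± 2.19 of it in the Control group and 44.2% ± 0.55 with MSNPs, and Hk3 16.7% ± 2.95 and 45.5% ± 0.591, so that Hk3 and Hk1 were then about equally abundant.

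**Figure D2:**
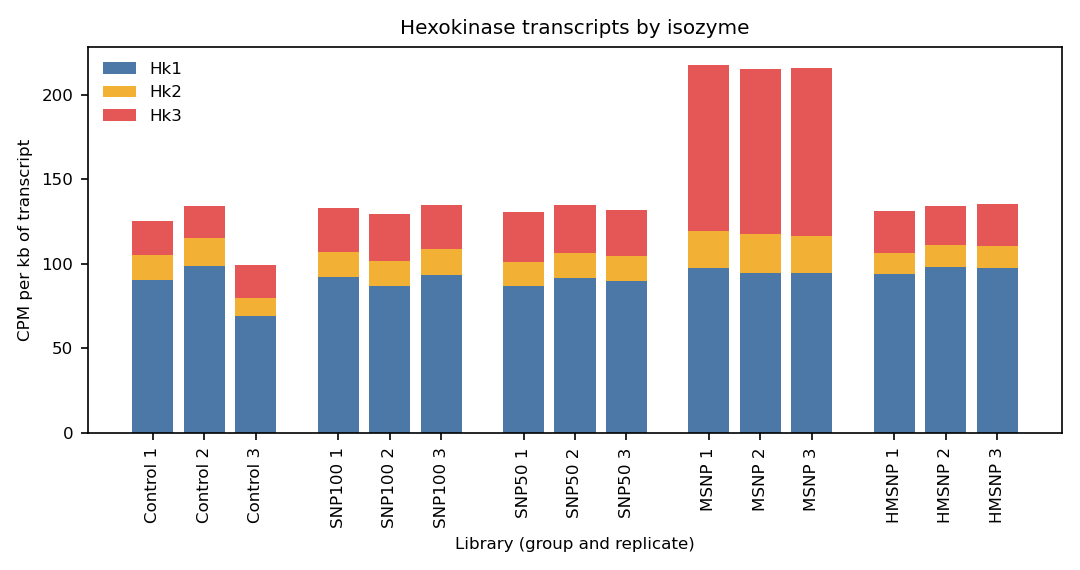
Level of the 3 hexokinase transcripts, stacked from 0, in CPM per kb of canonical transcript in each library. The red Hk3 part is about as tall as the blue Hk1 part in the 3 MSNP libraries and a small share of the bar in the other 12.

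Phosphofructokinase and its regulators were split. Pfkp, the platelet-type isozyme, was at 188, 209 and 128 CPM in the Control libraries and at 280, 279 and 280 CPM in the MSNP libraries (log2 fold change 0.68, adjusted p = 0.000743; 0.50 without Control replicate 3). Pitrm1, on the opposite strand, shares 1831 exonic bases with Pfkp and was itself higher (0.42, adjusted p = 0.00124). Pfkl, the most abundant isozyme, and Pfkm were not called, but Pfkl was called higher without Control replicate 3 (0.22, adjusted p = 0.000713). Pfkfb3, whose product makes the allosteric activator of phosphofructokinase, went from 43.7, 51.2 and 29.3 CPM to 72.7, 74.8 and 69.2 CPM (0.80, adjusted p = 0.000492), and its value was 0.61 without Control replicate 3. Pfkfb4, a related enzyme, moved the other way. It was at 21.4, 23.4 and 18.1 CPM in the Control group and at 15.1, 15.5 and 15.7 CPM with MSNPs (-0.44, adjusted p = 0.00105), a call that was lost in the fit of the 6 libraries alone (adjusted p = 0.0571). Pfkfb3 thus took 74.3% ± 0.99 of the summed Pfkfb3 and Pfkfb4 level in the MSNP-treated group, against 54.4% ± 3.92 in the Control group.

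The remaining steps of the trunk pathway were close to the Control level. Gpi1, Aldoa, Aldoc, Tpi1, Gapdh, Pgk1, Pgam1, Eno1 and Pkm, which carry glucose phosphate down to pyruvate, had log2 fold changes between -0.14 and 0.16, and 0 of these 9 were called. Gapdh was at 2296, 2257 and 2882 CPM in the Control libraries and at 2558, 2527 and 2520 CPM in the MSNP libraries. These ranges overlapped only through Control replicate 3, and the log2 fold change was 0.03 (adjusted p = 0.828). Without that library, Gapdh (0.16), Tpi1 (0.26), Aldoc (0.12) and Pgam1 (0.18) were called higher, each by less than 0.3 on the log2 scale. Eno2, the enolase isozyme best known from neurons, was the exception in this stretch. Its level was 13.95, 8.65 and 8.67 CPM in the Control group and 40.4, 41.5 and 53.5 CPM with MSNPs, with a log2 fold change of 2.12 (SE 0.193, adjusted p = 7.87e-07). Eno1 still held 98.5% ± 0.25 of the summed enolase level, Eno2 having risen from 0.334% ± 0.111 to 1.49% ± 0.25.

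At the lactate end, both transporters rose and the enzyme did not. Slc16a3, the lactate exporter MCT4, was at 270, 272 and 317 CPM in the Control libraries and at 381, 365 and 362 CPM with MSNPs (log2 fold change 0.37, adjusted p = 0.00193). It shares 4529 exonic bases with Csnk1d on the opposite strand, which was not called (-0.06, adjusted p = 0.455). Slc16a1, the carrier MCT1, rose by a similar amount (0.30, adjusted p = 0.0011). Both calls were lost when an offset was used that takes out the length trend of every library (0.22, adjusted p = 0.14, for Slc16a3, and 0.17, adjusted p = 0.112, for Slc16a1), and in the fit of the 6 libraries alone (adjusted p = 0.054 and 0.0531). Ldha, which reduces pyruvate to lactate, was at 1974, 2008 and 2596 CPM in the Control group and at 2143, 2047 and 2055 CPM with MSNPs. Its groups overlapped (-0.07, adjusted p = 0.583). Pdk1, which holds pyruvate back from the mitochondria, was not called either (-0.03, adjusted p = 0.862).

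Of the oxygen-sensing genes, 0 of 3 were called. Hif1a itself was at 184, 216 and 105 CPM in the Control libraries and at 208, 198 and 195 CPM in the MSNP libraries. The groups overlapped, with a log2 fold change of 0.25 (95% interval -0.12 to 0.62, adjusted p = 0.327), and the value was 0.01 without Control replicate 3. Egln1 had a log2 fold change of 0.04 (adjusted p = 0.756). RNA levels do not measure the HIF protein, which is where oxygen acts.

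The HIF targets outside glycolysis went in both directions, with 3 of 8 called higher and 2 lower. Ndrg1, a stress-responsive gene induced by hypoxia, was at 53.7, 57.5 and 52.4 CPM in the Control libraries and at 279, 264 and 264 CPM in the MSNP libraries. Its log2 fold change of 2.30 (SE 0.063, adjusted p = 2.63e-12) was next to that of Hk3, with no overlap between the groups. Bnip3l, a mitophagy receptor, rose from 60, 63.2 and 56.7 CPM to 81.1, 81.6 and 73.1 CPM (0.39, adjusted p = 0.000651). P4ha2, a collagen prolyl hydroxylase subunit, had at most 47 counts in a library and levels of 1.55, 1.03 and 0.889 CPM against 0.731, 0.636 and 0.599 CPM. Its call (0.81, adjusted p = 0.0423) was lost in 11 of 23 alternatives, among them without MSNP replicate 1 (0.57, adjusted p = 0.191). Bnip3, Vegfa and P4ha1 were not called, with log2 fold changes from 0.14 to 0.16, but Bnip3 was called higher without Control replicate 3 (0.28, adjusted p = 0.00486).

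The 2 targets that fell were low in level. Ankrd37, a small ankyrin repeat gene known as a HIF target, was at 4.72, 4.22 and 5.39 CPM in the Control libraries and at 2.02, 1.92 and 2.10 CPM with MSNPs (-1.25, adjusted p = 2.39e-05). It shares 1156 of its 1874 exonic bases with Ufsp2 on the opposite strand, which was not called (-0.15, adjusted p = 0.0905). Stc1, a secreted calcium-regulating hormone, had 5, 7 and 10 counts in the Control libraries and 0, 2 and 1 with MSNPs. The summed counts of 22 and 3 give a ratio of 0.143 (95% interval 0.0274 to 0.475, counting error only), and the call (adjusted p = 0.0144) was lost without MSNP replicate 1 (adjusted p = 0.0552).

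**Figure D3:**
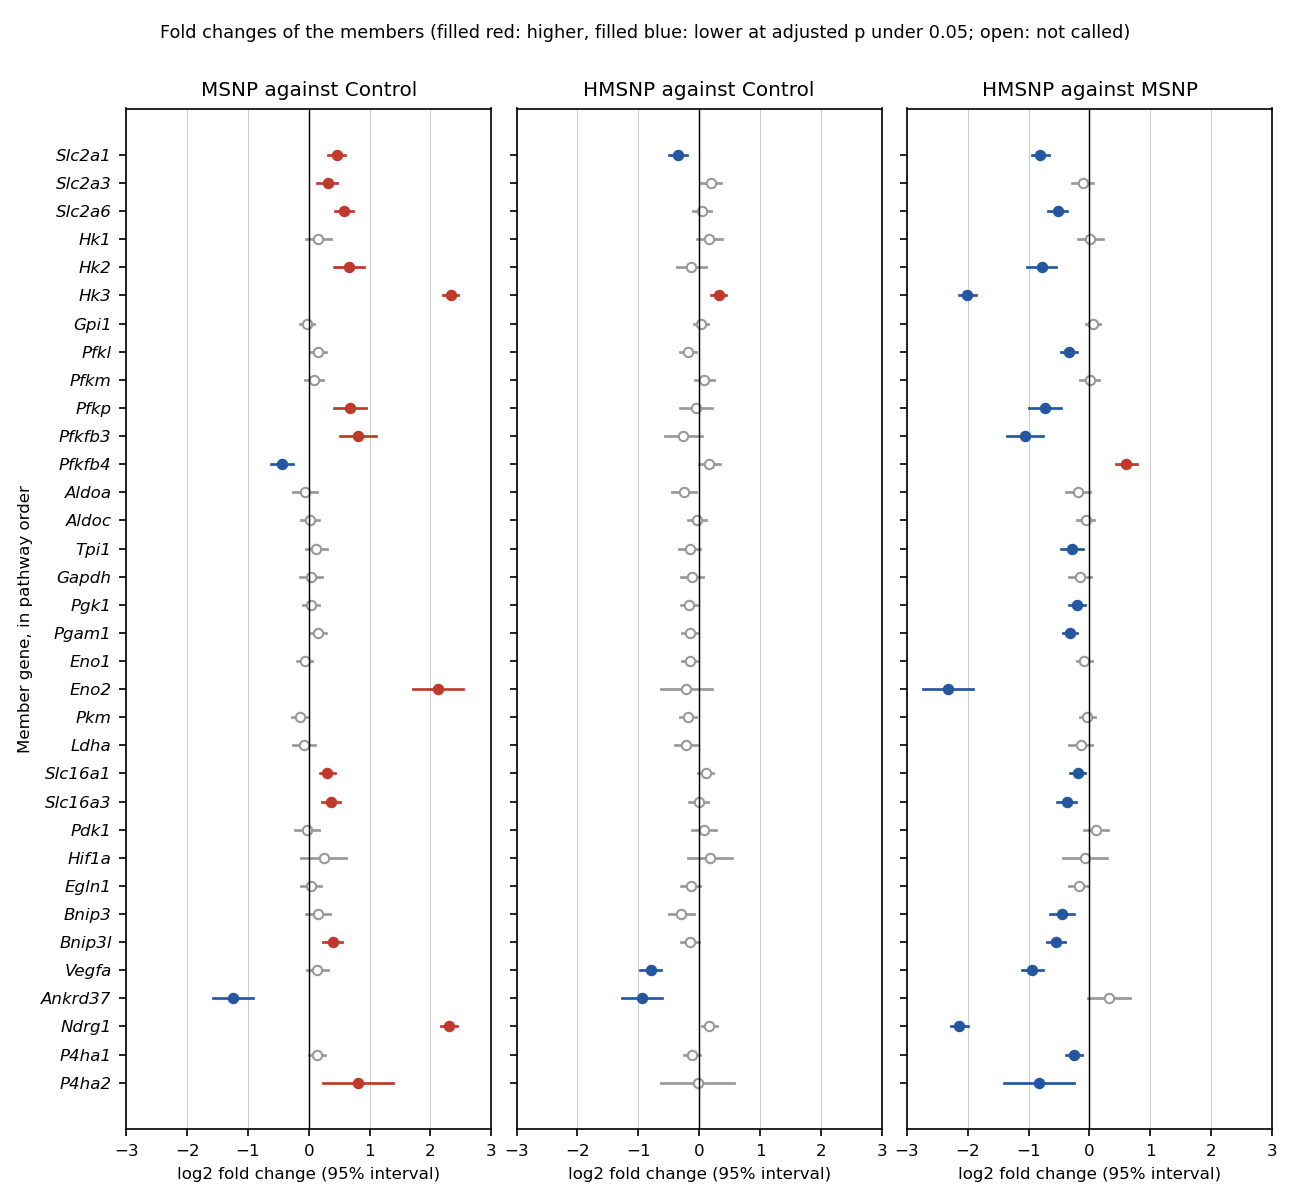
Log2 fold change (horizontal axis, from -3 to 3) of 34 members in pathway order for MSNP against Control, HMSNP against Control and HMSNP against MSNP, with 95% intervals; filled points were called at an adjusted p under 0.05. Hk3, Eno2 and Ndrg1 lie above 2 on the left and at or below -2 on the right, and most points of the middle panel lie near 0.

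The second comparison asked what hollow mesoporous particles did at the same dose. Against the Control group, 1 member was called higher and 4 lower in the HMSNP-treated group, 5 of 36 (13.9%), where 5.16% of all genes were called, 2.46% higher and 2.7% lower. The median was -0.13 over the members and -0.04 over all genes. Among genes with a mean of at least 10 CPM the shares were close, with 3 of 32 members (9.38%) and 8% of all genes called. When the fit held no more than the 6 libraries compared, 1 member and 0.439% of all genes were called. Without Control replicate 3 it was 9 members and 8.66% of all genes. The comparisons with Control share its 3 libraries, so the values for MSNPs and HMSNPs are given side by side and not as separate support.

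Vegfa, the vascular growth factor, showed the clearest decrease. It was at 58.1, 56.3 and 47.6 CPM in the Control libraries and at 30.3, 29.9 and 33.1 CPM in the HMSNP libraries, a log2 fold change of -0.80 (SE 0.0795, adjusted p = 2.56e-05). In the MSNP libraries it was at 58.8, 59 and 61 CPM, above every other library. Slc2a1 fell to 218, 258 and 233 CPM (-0.35, adjusted p = 0.00716), opposite to its rise with MSNPs, and this call was lost without HMSNP replicate 1 (-0.27, adjusted p = 0.0674). Ankrd37 fell to 2.498, 2.65 and 2.36 CPM (-0.93, adjusted p = 0.002). Stc1 had 2, 0 and 0 counts, a ratio of 0.0834 to the Control sum (95% interval 0.0095 to 0.339), and its call (adjusted p = 0.0216) was lost without HMSNP replicate 2 (adjusted p = 0.0935) or 3 (adjusted p = 0.0949).

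Hk3 was the only member called higher with HMSNPs, at 81.4, 75.5 and 80.1 CPM (log2 fold change 0.33, SE 0.0595, adjusted p = 0.00466). All HMSNP libraries were above all Control libraries, by 1.25-fold on average. The other genes that rose most with MSNPs were not called. Ndrg1 was at 59.3, 63.8 and 60.3 CPM (0.17, adjusted p = 0.124) and Eno2 at 8.58, 8.04 and 10.4 CPM (-0.21, adjusted p = 0.533). Hif1a, at 192, 198 and 181 CPM, lay within the Control range (0.18, adjusted p = 0.553).

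The lower part of the glycolytic trunk had values a little below the mean of the 3 Control libraries in the HMSNP-treated group. All 6 lower glycolysis members, Gapdh, Pgk1, Pgam1, Eno1, Eno2 and Pkm, had negative log2 fold changes, from -0.12 to -0.21, and 0 of the 6 were called. Ldha was at 1863, 1954 and 1843 CPM, below each Control library, with a log2 fold change of -0.22 (adjusted p = 0.15), and Gapdh was at 2228, 2351 and 2273 CPM (-0.12, adjusted p = 0.415). Control replicate 3 was the highest Control library for both, at 2600 CPM for Ldha and 2880 CPM for Gapdh. The lowest Control libraries were at 1970 CPM for Ldha and 2260 CPM for Gapdh, the latter within its HMSNP range. Without Control replicate 3 the median was -0.09 over the members and 0 over all genes, and these genes were still not called. Without Control replicate 3, Hk2 (-0.29), Pfkp (-0.23), Pfkfb3 (-0.46) and P4ha1 (-0.16) were called lower in addition. Their values with that library were -0.13, -0.05, -0.26 and -0.11, and they were not called. Leaving out Control replicate 2 instead, which keeps the deviating replicate 3, gave 13 calls among the members. Ldha (-0.26), Aldoa (-0.30) and Hk1 (0.29) were among them, and 25.2% of all genes were then called.

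The third comparison set HMSNP directly against MSNP, at the same dose and nominal size and without the Control libraries in the contrast. In the HMSNP-treated group 19 members were lower and 1 was higher, 20 of 36 (55.6%), where 20.2% of all genes were called, 11% lower and 9.22% higher. Among genes of at least 10 CPM, 18 of 32 members and 17.5% of all genes were lower. The median was -0.23 over the members and 0 over all genes. In 25 members every HMSNP library lay below every MSNP library, against 23.7% of all genes. Without Control replicate 3, which does not enter this contrast, 23 were lower and 1 higher, and 33.9% of all genes were called.

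The largest differences were again Eno2, Ndrg1 and Hk3. Eno2 was at 8.04 to 10.4 CPM with HMSNPs and at 40.4 to 53.5 CPM with MSNPs, 5.01-fold lower (adjusted p = 3.38e-07). Ndrg1 was 4.4-fold lower (adjusted p = 1.12e-11) and Hk3 4.01-fold lower (adjusted p = 1.46e-11). Pfkfb3 was at 33.8, 36.3 and 33.6 CPM against 72.7, 74.8 and 69.2 CPM, 2.09-fold lower (adjusted p = 3.97e-05). Vegfa differed 1.92-fold (adjusted p = 4.05e-07) and Slc2a1 1.75-fold (adjusted p = 3.81e-07). Of the 5 groups, Vegfa was lowest with HMSNPs and Slc2a1 highest with MSNPs.

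The smaller differences lay in glucose uptake, upper and lower glycolysis, the lactate branch and the hypoxia-responsive targets. Of the 3 oxygen-sensing genes 0 were called, where 20.2% of all genes were, and Egln3 had at most 3 counts in any library. Without Control replicate 3, Egln1 was called lower (-0.19, adjusted p = 0.0098), where 33.9% of all genes were called. Hk2, at 97.5, 99.8 and 103 CPM with HMSNPs, was lower by 1.73-fold (adjusted p = 8.48e-05), Pfkp, at 163, 166 and 177 CPM, by 1.66-fold, and Slc2a6, at 74.1, 76.3 and 75.5 CPM, by 1.44-fold. Slc16a3, at 272, 299 and 283 CPM, was lower by 1.3-fold and Bnip3l, at 54.5, 57.2 and 49.9 CPM, by 1.46-fold. Bnip3 (log2 fold change -0.45), Pfkl (-0.34) and Pgam1 (-0.32) were also called lower. Tpi1 (-0.28, adjusted p = 0.0229), P4ha1 (-0.25, 0.00886), Pgk1 (-0.20, 0.0316), Slc16a1 (-0.20, 0.0241) and P4ha2 (-0.83, 0.0389) were called too. Each lost its call without MSNP replicate 1 (adjusted p from 0.0508 to 0.202) and without HMSNP replicate 1 (0.0578 to 0.0861). All of them but P4ha1 also lost it when certain other libraries were left out. Pfkfb4, at 23.1, 23 and 24.3 CPM against 15.1, 15.5 and 15.7 CPM, was the member that was higher with HMSNPs (0.60, adjusted p = 6e-05). Pfkfb4 made up 52.4% ± 1.65 of the summed Pfkfb3 and Pfkfb4 level there, against 25.7% ± 0.99 with MSNPs.

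Some members did not separate the porous particles. The log2 difference was 0.01 for Hk1 (95% interval -0.19 to 0.22), 0.01 for Pfkm (-0.15 to 0.16), -0.04 for Pkm (-0.16 to 0.09) and -0.08 for Hif1a (-0.44 to 0.29). The interval of Hif1a, which uses the spread over all groups, was the widest of these. Gapdh, Aldoa and Ldha had values of -0.15, -0.18 and -0.14 that were not called, with every HMSNP library below every MSNP library. Without Control replicate 3, Gapdh (-0.16, adjusted p = 0.0147), Aldoa (-0.19, adjusted p = 0.0011) and Ldha (-0.15, adjusted p = 0.00466) were called.

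**Figure D4:**
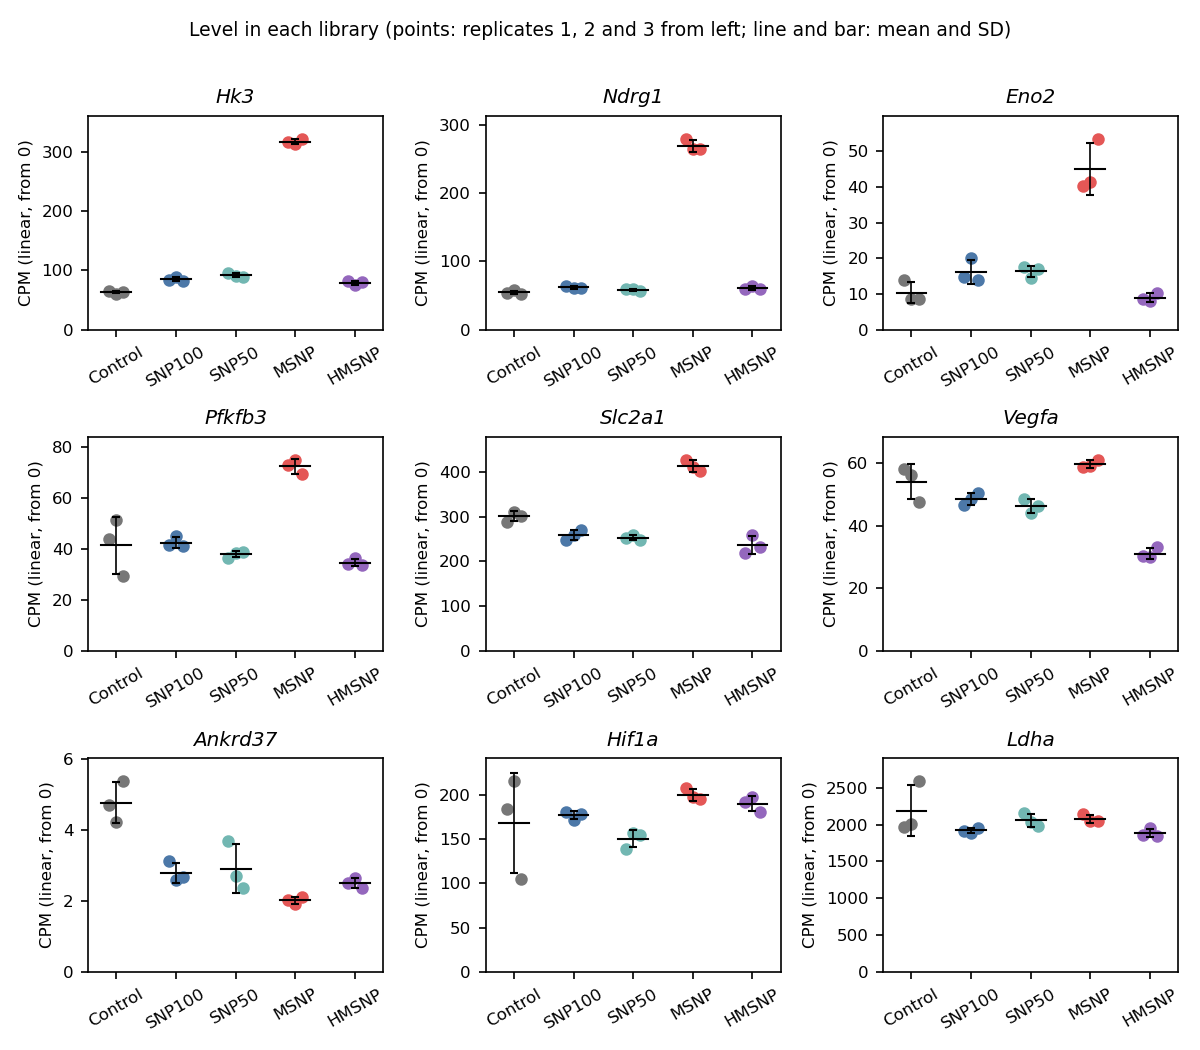
CPM of 9 members in each of the 15 libraries on linear axes from 0, with points for replicates 1, 2 and 3 from left to right and the mean and SD of each group of 3 in black. Hk3, Ndrg1, Eno2, Pfkfb3 and Slc2a1 are highest in the 3 MSNP libraries, Vegfa is lowest in the 3 HMSNP libraries, and Hif1a and Ldha show the deviating Control replicate 3.

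With the nonporous particles few members changed. In the SNP100-treated group 1 member was higher and 1 lower (5.56%), where 0.912% of all genes were called, and in the SNP50-treated group 1 was higher and 2 were lower (8.33%), where 1.41% were called. When each fit held no more than the 6 libraries compared, edgeR called 0 members in either group, and 0 genes and 1 gene in all. The counts without Control replicate 3 were 6 and 15 members, beside 5.16% and 18.9% of all genes. DESeq2 called 5 and 7 members, beside 3.96% and 5.27% of the genes it tested. By the unadjusted p of edgeR on all libraries, 12 and 10 members were under 0.05, as were 2085 and 2384 of the 19839 genes. Hk3 was at 84, 89.3 and 82.7 CPM with SNP100 (log2 fold change 0.44, adjusted p = 0.0022) and at 95.1, 91.1 and 88.4 CPM with SNP50 (0.54, adjusted p = 0.000477). Every treated library lay above every Control library. Ankrd37 was lower with SNP100, at 3.12, 2.59 and 2.69 CPM (-0.77, adjusted p = 0.0248), and with SNP50, at 3.68, 2.69 and 2.37 CPM (-0.72, adjusted p = 0.0324). Both calls were lost without Control replicate 1 (adjusted p = 0.0669 and 0.0677), the first also without SNP100 replicate 2 (0.135) or 3 (0.109) and the second without SNP50 replicate 2 (0.159) or 3 (0.143). Bnip3 was lower with SNP50 (-0.46, adjusted p = 0.0239), a call that was lost when any 1 of the 3 SNP50 libraries was left out (adjusted p from 0.0814 to 0.102).

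Eno2 lay above the Control range in all nonporous libraries without passing the test. It was at 14.7, 20 and 13.98 CPM with SNP100 (log2 fold change 0.64, adjusted p = 0.177) and at 17.6, 14.6 and 17 CPM with SNP50 (0.65, adjusted p = 0.133). Slc2a1 was below every Control library in both groups, at 247, 258 and 270 CPM and at 252, 260 and 248 CPM, and was not called (-0.22, adjusted p = 0.202, and -0.25, adjusted p = 0.103). Without Control replicate 3 it was called lower in both (adjusted p = 0.0476 and 0.00805). Hif1a was at 181, 172 and 179 CPM with SNP100 and at 139, 157 and 155 CPM with SNP50 (-0.16, adjusted p = 0.8). For SNP50 it was called lower without Control replicate 3 (-0.41, adjusted p = 0.000527).

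The remaining comparisons were between particles of unequal dose. Between SNP50 at 25 µg/mL and SNP100 at 50 µg/mL, edgeR called 0 members and 0 genes (0%), and DESeq2 called 0 members. At an unadjusted p under 0.05 there were 1 member and 867 genes. The intervals were narrow for Hk3 (0.10, 95% interval -0.02 to 0.23) and Slc2a1 (-0.03, -0.17 to 0.12) and wider for Eno2 (0.01, -0.39 to 0.41) and Ankrd37 (0.05, -0.28 to 0.39). Between MSNP at 200 µg/mL and SNP100 at 50 µg/mL, 19 members were higher with MSNPs and 1 was lower, 20 of 36, where 17.9% of all genes were called, 10.4% higher and 7.53% lower. Ndrg1 was 4.34-fold, Hk3 3.72-fold and Eno2 2.78-fold higher, and Pfkfb4 was 1.27-fold lower. Porosity and dose cannot be told apart in this comparison.

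Genes around the pathway were read from lists of related enzymes and regulators, by counts and medians only, beside the 22.8% of all genes called with MSNPs and the 5.16% called with HMSNPs. Of 20 other glycolytic isozymes and glucose carriers tested, 4 were higher and 2 lower with MSNPs, among them Pfkfb2 (log2 fold change 0.76), a further enzyme of the Pfkfb family, and the enolases Eno3 (-0.71) and Eno4 (-0.99). With HMSNPs 1 was higher and 2 were lower, Eno4 by a similar amount (-1.02). Of 12 genes of pyruvate entry into mitochondria, 4 were higher and 1 lower with MSNPs. The phosphatase Pdp2, which activates pyruvate dehydrogenase, rose (0.57, adjusted p = 0.000116), and the kinase Pdk2, which inhibits it, fell (-0.87, adjusted p = 7.21e-05). Pdk2 was low in level, at a mean of 3.33 CPM in the Control group and 1.82 CPM with MSNPs. The more abundant kinase Pdk1, at a mean of 88.4 CPM with MSNPs, was not called. With HMSNPs 0 were higher and 1 was lower, Dld (-0.21).

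In the pentose phosphate pathway, 0 of 11 genes were higher and 2 lower with MSNPs. H6pd, the dehydrogenase of the endoplasmic reticulum, was at a mean of 192 CPM in the Control group and 77.9 CPM with MSNPs (-1.30, adjusted p = 5.83e-06), and Pgd fell by less (-0.43). With HMSNPs 1 was higher, G6pdx (0.27), the first enzyme of the pathway. Among genes of glycogen and gluconeogenesis, 5 of 15 were higher and 2 lower with MSNPs. Gyg1, the primer of glycogen synthesis, went from a mean of 41 CPM to 171 CPM (2.06, adjusted p = 5.16e-11), and Gaa, the lysosomal glucosidase that degrades glycogen, from 77.3 to 176 CPM (1.19, adjusted p = 9.02e-09). With HMSNPs 0 were higher and 2 lower, led by Pck2, a mitochondrial enzyme of gluconeogenesis, at 25.4 CPM against 77.2 CPM (-1.60, adjusted p = 5.81e-09).

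Other HIF pathway components had 3 of 17 higher and 1 lower with MSNPs, and 0 called in either direction with HMSNPs. Cited2, which competes with HIF for its coactivators, fell from a mean of 431 CPM to 254 CPM (-0.76, adjusted p = 1.36e-07). Of 44 other hypoxia-responsive targets, 13 were higher and 11 lower with MSNPs, with a median of 0.07. Pfkfb2, Gys1, Gbe1 and Pgm1 are in this list and also in the isozyme or glycogen lists above. Bhlhe40, a transcriptional repressor, rose (1.61, adjusted p = 1.57e-10), as did Rab20, a small GTPase of endosomes (1.73, adjusted p = 9.65e-08). With HMSNPs 1 was higher and 12 were lower, with a median of -0.21 against -0.04 over all genes. Ddit4, an inhibitor of mTORC1, fell (-1.49, adjusted p = 1.16e-07), and so did the secreted glycoprotein Stc2 (-1.05, adjusted p = 1.49e-06) and the inducible nitric oxide synthase Nos2 (-2.0, adjusted p = 0.00257). Of 8 genes of glucose sensing, 1 was higher and 3 lower with MSNPs, among them Myc (-0.57). With HMSNPs Txnip, a glucose-responsive inhibitor of glucose uptake, was lower (-0.35, adjusted p = 0.00178).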

How the data were processed

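Per the labels and the study's methods, the authors prepared poly(A) libraries with a directional kit and mapped the reads to GRCm39. The submitters' processing notes name cutadapt 1.16, STAR 2.7.9a and featureCounts 1.6.3. The authors deposited raw counts per gene and library, without normalization. The annotation release and the strand setting of the counting are not given in the sources used here, so overlapping genes are named. Symbols and lengths were taken from GENCODE vM39, which held 56630 of 57186 identifiers. The submitters' groups were used, with doses from the study's methods.

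Genes with at least 10 summed counts were fitted with edgeR 4.0.16 in R 4.3.3, using TMM, one model of all 15 libraries and the two-sided quasi-likelihood test. P-values were adjusted by Benjamini-Hochberg over all 19839 genes and called under 0.05. Levels per kb used the canonical transcript. The 36 members and the lists were chosen with earlier results of these data known. All members are named, those called with an absolute log2 fold change of at least 0.5 in any of 7 comparisons (and Hif1a, Slc2a1, Ldha and Gapdh) library by library. From each related list, called genes with the largest changes and a mean of at least 1 CPM were named, apart from 1 gene that is not reported here. The alternatives were RLE, no filter, filterByExpr, DESeq2 1.42.0, a replicate block, only 6 libraries, a length offset and leaving out each library. Only the edgeR step was tested on simulated counts, drawn from the genes' means and the library sizes without a length trend.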

Additional observations from a re-analysis of the deposited data

How the results depend on the processing

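The counts of members called for MSNP against Control (main 16, 14 to 21 when 1 library was left out), HMSNP against MSNP (20, 15 to 24) and MSNP against SNP100 (20, 17 to 27) stayed within 1.5 times of the main value under every alternative run. The share of all genes called moved more when 1 library was left out. In the same order it ran from 17.4% to 33.2%, from 16.1% to 33.9% and from 13.4% to 33.1%. The share of all genes called is given in parentheses for the counts that moved. For HMSNP against Control (5 members, 5.16%), DESeq2 called 11 (15.1%), the length offset 11 (10.2%), the offset without Control replicate 3 gave 10 (11.3%), the 6 libraries alone 1 (0.439%), and leaving out 1 library gave 4 to 13 (2.51% to 25.2%). For SNP100 against Control (2 members, 0.912%), DESeq2 called 5 (3.96%), the offset without Control replicate 3 gave 8 (6.25%), the 6 libraries alone 0 (0%), and leaving out 1 library gave 1 to 6 (0.29% to 5.16%). For SNP50 against Control (3 members, 1.41%), DESeq2 called 7 (5.27%), filterByExpr 5 (2.86%), the length offset 7 (4.7%), the offset without Control replicate 3 gave 16 (15.6%), the 6 libraries alone 0 (0.00574%), and leaving out 1 library gave 1 to 15 (0.443% to 18.9%). For SNP50 against SNP100 (0), the offset without Control replicate 3 gave 1 (0.974%). The highest counts for SNP100 and SNP50 came without Control replicate 3, and that for HMSNP without Control replicate 2. Their cause was not tested.

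Among single members, 1 call changed sign: Pfkp for SNP50 against Control was 0.02 and not called, and -0.17 (adjusted p = 0.0204) without Control replicate 3, its range when 1 library was left out being -0.17 to 0.17. Same-numbered libraries correlated from -0.52 to 0.57 in their deviations from the group means. Differently numbered libraries were not compared, so whether the replicate numbers pair the libraries was not settled. The members called with the replicate block follow, with the share of all genes called in parentheses. Against Control, they were 15 (22.1%) for MSNP, 5 (4.46%) for HMSNP, 2 (0.716%) for SNP100 and 2 (0.907%) for SNP50. Between particles, they were 18 (19.2%) for HMSNP against MSNP, 20 (16.9%) for MSNP against SNP100 and 0 (0%) for SNP50 against SNP100. Depth limits Egln3, Stc1 and P4ha2, which had at most 3, 10 and 47 counts in a library.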
